A study of Mus musculus with 8 samples.

Results

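Rhoa, Phc2, Ywhag, Atl3, Pum2, Mapk1ip1l and Tox4 are 7 genes with A-to-I edited sites in the 3′ UTR of their transcripts, chosen because their editing levels were lower in Th17 than in naive CD4 T cells. They are 7 of the 403 genes with a listed site, and they hold 38 of the 869 sites in the table of Th17 and naive cells and 15 of the 355 sites in the table of DDX5-deficient and wild-type Th17 cells. All 38 sites were listed for naive cells and 14 of them also for Th17 cells. Over the series, 101 of the 571 sites listed for naive cells were also listed for Th17 cells. The editing levels of these 14 sites in the Th17 and naive libraries are the values that chose the genes, so that contrast is given as a description without a test. The stated ground of the choice names neither the DDX5-deficient or wild-type levels nor expression. The genes were chosen with earlier results of these data known, however, so these values may not be independent of the choice. Each of the 7 genes has a site listed for wild-type Th17 cells. The naive libraries that the wild-type ones are set against are those that chose the genes.

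The study sequenced ribosome-depleted RNA of CD4 T cells from C57BL/6 mice in 8 libraries, 2 in each of 4 groups. Th17 cells, the helper cells that secrete interleukin-17, had been cultured for 72 h on antibodies to CD3ε (0.25 µg/mL) and CD28 (1 µg/mL) with 0.1 ng/mL of TGF-β plus 20 ng/mL of IL-6, and naive cells were untreated. DDX5-deficient and wild-type Th17 cells came from a further set of cultures under the same labelled conditions. The column headers label the first Th17 and the naive libraries WT as well. Those of their counts also carry Malat1, a tag whose meaning is not given in the sources used here. The term wild-type is kept here for the Th17 cells of the further cultures. The DDX5-deficient libraries are titled DDX5∆T, and the labels do not say by which Cre driver or allele DDX5 was removed. The labels' treatment fields give the doses above, while the growth protocol gives a range for TGF-β and the treatment protocol adds a second time point. The submitters call the replicates independent and biological, and no label says whether they came from separate animals. An identifier in the descriptions is shared by naive library 2 and Th17 library 2, while those of naive library 1 and Th17 library 1 differ, and the labels do not say what it stands for.

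In A-to-I editing, ADAR enzymes deaminate adenosines within double-stranded RNA to inosine, which a sequencer reads as guanosine. In 3′ UTRs the double strand usually forms where a transcript carries an inverted repeat, and the edited base can alter RNA folding, microRNA binding or nuclear retention. ADAR1, encoded by Adar, is the main editor of such repeats in lymphocytes, and ADAR2, encoded by Adarb1, is best known for recoding sites in the brain. The editing level of a site is the share of its reads that carry the edited base, so it does not depend on the length of the transcript or on the depth of the library, whereas its precision does.

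All 38 sites lay in the last exon and the 3′ UTR of the GENCODE M21 transcript used, on the GRCm38 (mm10) build. The reference base of the transcript strand was A at each of them, as it was at 830 of the 830 deposited sites that could be placed in a transcript of their gene. Rhoa, Phc2, Atl3, Pum2, Mapk1ip1l and Tox4 lie on the plus strand of chromosomes 9, 4, 19, 12, 14 and 14, and Ywhag lies on the minus strand of chromosome 5. The sequences below are 29-base windows of the annotated transcripts around the sites on which the results turn, 5′ to 3′ on the transcript strand, and the capitals mark every deposited edited adenosine in the window.
Rhoa, chr9:108337116-108337144: aacttttgtgaattAggctgtaactactt
Phc2, chr4:128752161-128752189: gtttctactcctgtAccctctgcaggtgg
Ywhag, chr5:135909328-135909356: cccctccccatgctAgtgtgccagcaccc
Pum2, chr12:8750255-8750283: ttaaaaagaaagttAAgttgtAttttggt
Atl3 first site, base 1214, chr19:7535236-7535264: gtgtagaccAggctAgccttgaactcata
Atl3 second site, base 4079, chr19:7538101-7538129: agggtctcagtgtaAccttgtctgttctg
Tox4 base 193, chr14:52293440-52293468: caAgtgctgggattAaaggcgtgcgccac
Tox4 base 554, chr14:52293801-52293829: gagaagagagacttAgggtttcagctcag
Tox4 base 955, chr14:52294202-52294230: tggcActcccctttAAtcctacaacttag
Mapk1ip1l upstream cluster, chr14:47319964-47319992: cgcgcgctAAgtttAAttcAaccattata
Mapk1ip1l downstream cluster, chr14:47320763-47320791: attttggcagaActAggtataatggttAa

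The base before the edited adenosine was T at 19, A at 15, C at 4 and G at 0 of the 38 sites. A guanine in this position is known to disfavour ADAR. Over the 830 placed sites it was T at 42.0%, A at 34.3%, C at 19.4% and G at 4.22%. The base after the adenosine was G at 18 of the 38 sites, 47.4%, and at 48.0% of all placed sites, so the 7 genes had the neighbour bases that are usual in these tables.

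Of the 38 sites, 30 (78.9%) lay inside an inverted repeat of their own 3′ UTR, against 545 (71.2%) of the 765 placed sites in a 3′ UTR. An inverted repeat is here a stretch that aligns with the reverse complement of the same 3′ UTR at an E value of at most 0.01, and a match describes the letters and not a structure seen in cells. The clearest case was Mapk1ip1l, whose upstream and downstream clusters are the 2 arms of 1 repeat of 32 bases with 90.6% identity. Its arms spanned bases 547 to 578 and 1348 to 1379 after the stop codon, 769 bases apart. In the windows above, the upstream run Aaccattata and the downstream run tataatggtt face each other in that alignment. Pum2, whose protein binds the 3′ UTRs of other messengers, had its 3 sites in a 29-base arm at bases 545 to 573 that matched bases 47 to 75 with 86.2% identity.

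The 2 sites of Atl3 listed for both groups lay in different repeats. The first, at base 1214 after the stop codon, was in an arm at bases 1201 to 1246 that matched bases 1459 to 1507 with 79.6% identity. The second, at base 4079, was in an arm at bases 4044 to 4154 that matched bases 1458 to 1566 with 70.2% identity. The stretch around base 1496 thus matched both edited stretches of that 3′ UTR and itself held a site, listed for naive cells alone.

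In Tox4 the sites at bases 193 and 955 lay in opposite arms of 1 repeat, at bases 120 to 217 and 931 to 1030 with 75.2% identity, and the site at base 554 lay in none. The single site of Rhoa listed for both groups, at base 309, and the corresponding site of Phc2, at base 521, lay in stretches that match their own reverse complement, at bases 239 to 310 with 70.3% identity and at bases 441 to 574 with 62.9% identity. In such a stretch each pairing is scored from both sides, so its E value is not comparable with that of separate arms. These sites are among the 30 counted above as inside an inverted repeat. The Ywhag site, at base 1653 of a 3′ UTR of 2586 bases, lay in no repeat found by this search.

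**Figure D1:**
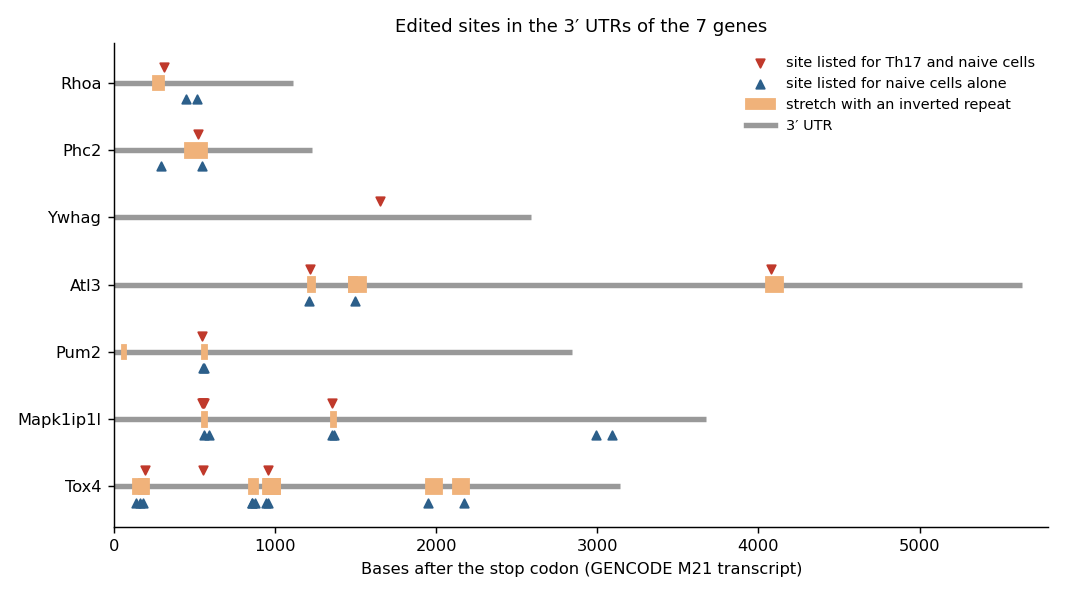
Edited sites along the 3′ UTR of each gene, in bases after the stop codon of the GENCODE M21 transcript. Red marks above the line are the 14 sites listed for Th17 and naive cells, blue marks below it are the 24 sites listed for naive cells alone, and orange boxes are stretches with an inverted repeat: the 2 orange boxes of Mapk1ip1l hold its upstream and downstream clusters, and the Ywhag site lies in none.

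RhoA is the small GTPase that drives actin contraction through the ROCK kinases, and in T cells it acts in adhesion and migration. The Rhoa site had 21.9% and 15.6% edited reads in the Th17 libraries, against 73.3% and 81.3% in the naive libraries. Each Th17 library lay far below each naive library, and in Th17 library 2, where the deposited coverage applies, 66 of 424 reads were edited, 15.6% with an exact Clopper-Pearson 95% interval of 12.2% to 19.4%. The difference in means, Th17 minus naive, was -58.6 percentage points.

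Ywhag encodes 14-3-3γ, an adaptor that binds phosphorylated proteins. Its site had 6.98% and 6.16% edited reads in the Th17 libraries, against 45.9% and 52.7% in the naive libraries. Both Th17 libraries lay far below both naive libraries, and 13 of 211 reads were edited in Th17 library 2, with an exact interval of 3.32% to 10.3%. The difference was -42.7 percentage points.

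Phc2 encodes a subunit of the Polycomb repressive complex 1, which compacts chromatin and ubiquitinates histone H2A. The Phc2 site had 13.1% and 10.3% edited reads in the Th17 libraries, against 63.1% and 71.5% in the naive libraries. The groups did not overlap, with 7 of 68 reads edited in Th17 library 2, an exact interval of 4.24% to 20.1%, and a difference of -55.6 percentage points.

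Tox4 encodes an HMG-box protein that forms a complex with protein phosphatase 1, its targeting subunit PNUTS (Ppp1r10) and Wdr82. The site at base 193 had 13.2% and 18.0% edited reads in the Th17 libraries, against 44.9% and 47.9% in the naive libraries. At base 554 the levels were 6.79% and 8.00% in Th17 cells and 28.4% and 32.4% in naive cells. The site at base 955 had 6.47% and 7.69% in Th17 cells and 36.1% and 34.3% in naive cells. The 3 sites were lower in both Th17 libraries than in either naive library, by 23.0 to 30.8 percentage points in the means, whether or not a repeat was found around them.

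Pumilio 2, the product of Pum2, binds 3′ UTR elements and recruits the CCR4-NOT deadenylase. The Pum2 site at base 549 had 40.5% and 12.0% edited reads in the Th17 libraries, against 69.4% and 71.0% in the naive libraries. The Th17 libraries were lower than the naive ones but far apart from each other, with an SD of 20.2 percentage points, and library 2 had 3 edited reads of 25. The difference of -43.9 percentage points became -29.7 without Th17 library 2.

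Atlastin 3, the product of Atl3, is a GTPase that fuses tubules of the endoplasmic reticulum. Its site at base 1214 had 28.4% and 8.57% edited reads in the Th17 libraries, against 63.9% and 65.0% in the naive libraries. Its site at base 4079 had 29.5% and 20.0% in Th17 cells and 14.7% and 23.5% in naive cells. The first site was lower in Th17 cells without overlap, while at the second the groups overlapped and the Th17 mean was the higher one by 5.66 percentage points. The mean difference of the gene, -20.2 percentage points, therefore rested on its first site, and it was -12.8 without Th17 library 2.

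Mapk1ip1l had 5 sites listed for both groups, 4 in the upstream arm and 1 in the downstream arm. At base 549 the levels were 17.0% and 17.7% in the Th17 libraries and 41.5% and 37.9% in the naive libraries. The next base, 550, had 47.5% and 41.0% in Th17 cells and 58.5% and 55.2% in naive cells. Adjacent adenosines of the same arm thus differed in level in both cell states, and the difference between the states was -22.3 percentage points at base 549 and -12.6 at base 550.

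Further along that arm, base 555 had 16.1% and 10.3% edited reads in the Th17 libraries and 46.5% and 37.0% in the naive libraries. Base 556 had 7.96% and 11.8% in Th17 cells and 34.9% and 28.6% in naive cells. In the downstream arm, base 1354 had 67.9% and 52.9% in Th17 cells and 58.5% and 78.4% in naive cells, and here the groups overlapped. The 4 upstream sites were lower in Th17 cells without overlap, and the site in the facing arm was not. These sites are read in part by the same reads and are not independent of each other.

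**Figure D2:**
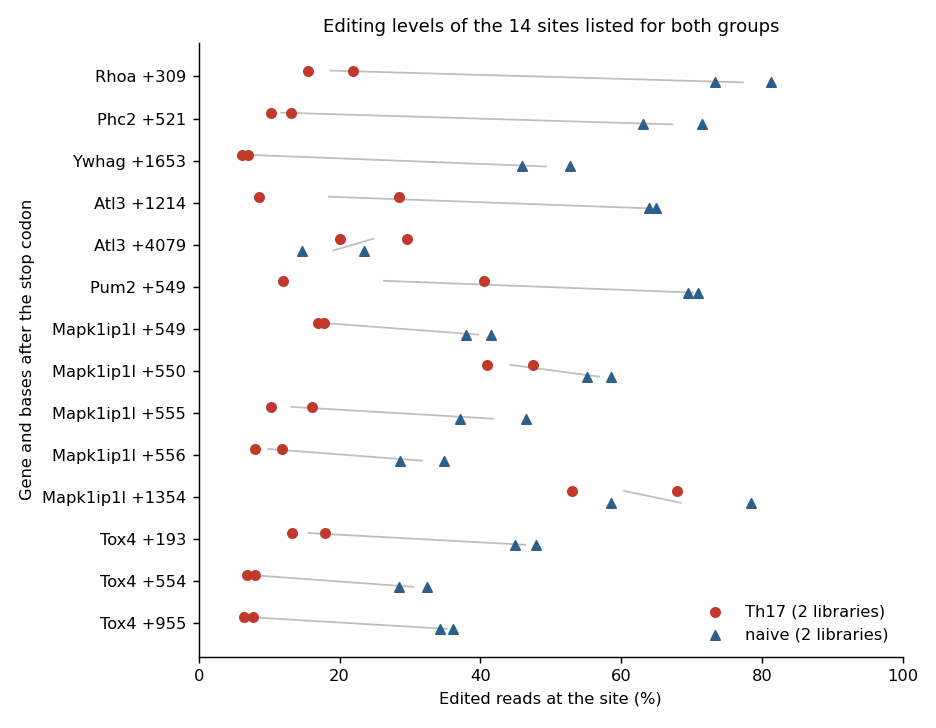
Percentage of edited reads at the 14 sites listed for both groups. Red circles are the 2 Th17 libraries, blue triangles the 2 naive libraries, and grey lines join the group means: the groups are separated at 12 sites and overlap at Atl3 base 4079 and Mapk1ip1l base 1354.

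Over the 14 sites, 12 were lower in both Th17 libraries than in either naive library, 0 were higher and 2 overlapped. Of all 101 sites with a level in both groups, 45.5% were lower without overlap and 11.9% were higher. The median difference was -28.4 percentage points over the 14 sites and -7.61 over the 101. Since the 7 genes were picked on these very levels, the counts only show where they sit among the others.

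Of the 44 genes with a site listed for both groups, 17 had at least 2 such sites. By gene, the differences were -58.6 for Rhoa, -55.6 for Phc2, -43.9 for Pum2, -42.7 for Ywhag, -27.3 for Tox4, -20.2 for Atl3 and -18.7 percentage points for Mapk1ip1l, with a median of -42.7 against -6.15 over the other 37 genes. Rhoa, Phc2, Pum2 and Ywhag had 1 such site each, and the median of the 7 is the value of the single Ywhag site. Just inside the choice stood Mapk1ip1l and Atl3, and outside it 8 other genes, each with 1 site, had a difference at least as low as that of Mapk1ip1l. They included the casein kinase gene Csnk1a1 at -38.4, Sdf4 at -32.1, Limd1 at -31.0 and the cytidine deaminase gene Apobec3 at -28.5 percentage points, named here after their values were seen. Among the other genes with at least 2 sites, those nearest to the median of the 7 were Tapbp, which encodes the peptide-loading chaperone tapasin, at -16.0 over 4 sites, the GTPase gene Nras at -11.1 over 2 sites and Sfxn2 at -9.45 over 4 sites, each a difference of means over 2 libraries a group. With single-site genes admitted, Csnk1a1 stood nearest to that median. The 7 genes are thus not the complete lower end of the table.

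**Figure D3:**
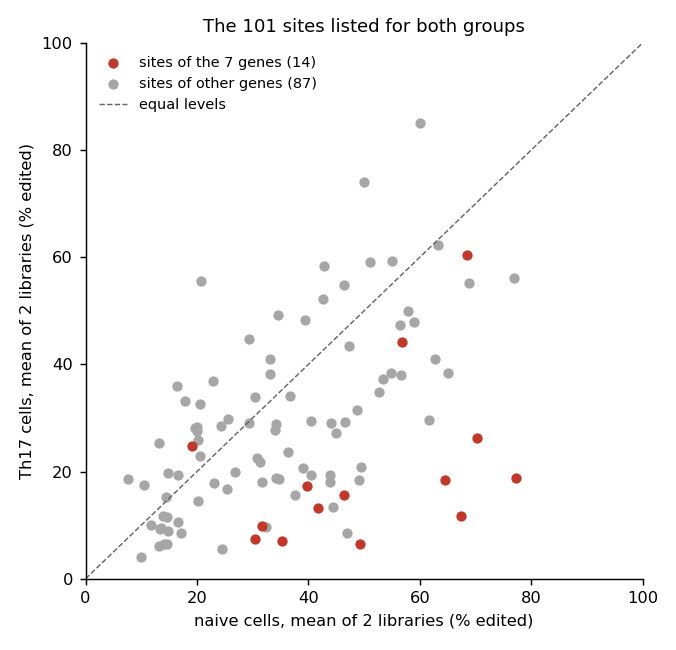
Mean percentage of edited reads in Th17 cells (vertical axis) against naive cells (horizontal axis) at the 101 sites listed for both groups, with the 14 sites of the 7 genes in red, those of other genes in grey and equal levels on the dashed line. Of the red points, 1 lies above the line, Atl3 base 4079 at 24.8% in Th17 and 19.1% in naive cells.

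The other 24 of the 38 sites of the 7 genes were listed for naive cells alone. Over the series this held for 470 of the 571 sites listed for naive cells. The genes were chosen by sites listed for both groups, so their share is not a result. The mean naive levels of the 24 sites ran from 4.66% to 43.0%, with a median of 16.3%, against 47.8% for the 14 sites listed for both. Over all 470 sites listed for naive cells alone in the series the median was 16.8%. Tox4 held 10 of its 13 sites in this class, among them a pair in the last listed stretch, at bases 1949 and 2175, with 26.7% and 30.1% in the naive mean. Mapk1ip1l held 6 of 11, and Rhoa, Phc2, Pum2 and Atl3 held 2 each. A site without a level in Th17 cells may have been unedited there or may have failed the caller's confidence limit, and these cases cannot be told apart. Counting every listed site of each group in the gene means gave a median difference of -15.5 percentage points in place of -42.7, since the low naive sites then enter the naive means alone, and turned that of Mapk1ip1l to +1.44.

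The wild-type Th17 cells of the further cultures gave a second reading of these sites. Of the 15 sites listed there, 12 were lower in both wild-type libraries than in either naive library, 2 were higher and 1 overlapped. Of all 82 sites with levels in both, 47.6% were lower without overlap and 19.5% higher. Those values come from 2 tables that were filtered separately, and the naive libraries are those that the choice of genes used. Of the 13 sites with levels in all 8 libraries, the wild-type range overlapped that of the first Th17 cells at 7, lay above it at 5 and below it at 1.

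Rhoa had 25.9% and 19.9% edited reads in the DDX5-deficient, 21.4% and 25.2% in the wild-type, 21.9% and 15.6% in the Th17 and 73.3% and 81.3% in the naive libraries. In order of the means the levels were 77.3% in naive, 23.3% in wild-type, 22.9% in DDX5-deficient and 18.7% in Th17 cells, and the 3 Th17 groups overlapped each other. Ywhag had 11.6% and 12.0% in the DDX5-deficient and 10.2% and 9.71% in the wild-type libraries. Its order was 49.3% in naive, 11.8% in DDX5-deficient, 9.93% in wild-type and 6.57% in Th17 cells, with no overlap between any neighbours. Phc2 had 21.1% and 14.8% in the DDX5-deficient and 8.22% and 17.0% in the wild-type libraries. Its order was 67.3% in naive, 17.9% in DDX5-deficient, 12.6% in wild-type and 11.7% in Th17 cells, where the wild-type range overlapped both of its neighbours.

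For Pum2 at base 549, the DDX5-deficient libraries had 42.6% and 36.4% and the wild-type libraries 29.3% and 42.9%. The means stood at 70.2% in naive, 39.5% in DDX5-deficient, 36.1% in wild-type and 26.3% in Th17 cells, and among the 3 Th17 groups each range overlapped its neighbour. The adjacent Pum2 adenosine at base 550, listed for naive but not for the first Th17 cells, was listed in the further cultures. It had 16.7% and 11.5% in the DDX5-deficient, 7.32% and 11.4% in the wild-type and 44.1% and 41.9% in the naive libraries. Likewise the Tox4 site at base 159 had 13.0% and 7.19% in the DDX5-deficient, 10.5% and 12.3% in the wild-type and 23.2% and 27.3% in the naive libraries. At both of these sites the wild-type libraries lay below the naive ones.

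Tox4 at base 193 had 25.8% and 27.9% edited reads in the DDX5-deficient, against 16.1% and 16.1% in the wild-type libraries. Its means were 46.4% in naive, 26.9% in DDX5-deficient, 16.1% in wild-type and 15.6% in Th17 cells, of which the last 2 overlapped. At base 554 the DDX5-deficient libraries had 11.2% and 8.77% and the wild-type libraries 5.04% and 11.3%, close to the 7.39% mean of the first Th17 cells and below the naive mean of 30.4%. Base 955 was not listed in this table.

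At the first Atl3 site the DDX5-deficient libraries had 34.0% and 40.4%, against 18.2% and 24.1% in the wild-type libraries. Its means were 64.4% in naive, 37.2% in DDX5-deficient, 21.2% in wild-type and 18.5% in Th17 cells, of which the last 2 overlapped. The second Atl3 site was instead lower in the DDX5-deficient libraries, with 26.2% and 14.3%, against 32.3% and 35.5% in the wild-type libraries. Its means were 33.9% in wild-type, 24.8% in Th17, 20.3% in DDX5-deficient and 19.1% in naive cells. At that site the wild-type libraries lay above all others, and the last 3 groups overlapped.

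In the upstream arm of Mapk1ip1l, base 549 had 23.8% and 24.7% in the DDX5-deficient and 12.2% and 15.6% in the wild-type libraries, and base 555 had 26.1% and 32.3% in the DDX5-deficient and 13.6% and 19.5% in the wild-type libraries. At both, the DDX5-deficient means of 24.2% and 29.2% stood between the wild-type means of 13.9% and 16.5% and the naive means of 39.7% and 41.8%. Base 550 had 57.0% and 63.4% in the DDX5-deficient, against 65.3% and 65.6% in the wild-type libraries, and with the wild-type levels above the naive ones it was, beside the second Atl3 site, the other site where wild-type Th17 cells stood higher than naive cells. Base 556 had 16.1% and 23.5% in the DDX5-deficient and 14.5% and 20.0% in the wild-type libraries, which overlapped. In the downstream arm, base 1354 had 79.2% and 77.1% in the DDX5-deficient and 71.4% and 74.3% in the wild-type libraries, and it kept the highest level of the 15 sites in these cultures.

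The DDX5-deficient and wild-type cells ask whether DDX5, an RNA helicase that unwinds double-stranded RNA, affects editing in Th17 cells. No expression values of these 4 libraries were used here, so the loss of Ddx5 RNA could not be checked in them. Of the 15 sites, 7 (46.7%) were higher in both DDX5-deficient libraries than in either wild-type library, 2 (13.3%) were lower and 6 overlapped. Of all 328 sites with levels in the 4 libraries, 19.5% were higher without overlap and 23.8% lower. The DDX5-deficient mean was the higher one at 11 of the 15 sites, with a median difference, DDX5-deficient minus wild-type, of +3.42 percentage points against -1.02 over the 328. Several of these sites share reads and a transcript, so the 15 are not independent.

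No site passed the test. Limma on the arcsine square root of the level, with Benjamini-Hochberg adjustment over the 328 sites, called 0 sites (0%) at an adjusted p under 0.05 and 31 (9.45%) at an unadjusted p under that value. Of the 15 sites, 1 was among those 31, the first Atl3 site. Its difference was +16.0 percentage points with a limma 95% interval of 2.20 to 29.8, and its limma adjusted p was 0.507. The interval was -0.805 to 21.4 around +10.3 percentage points at Mapk1ip1l base 549 and -1.05 to 26.4 around +12.7 at base 555. At Tox4 base 193 it was 0.0262 to 21.5 around +10.8 percentage points, with a limma adjusted p of 0.579 on the arcsine scale, and at the second Atl3 site -30.3 to 2.98 around -13.6. At Rhoa the difference was -0.374 with an interval of -13.2 to 12.4.

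The table of these cultures lists a site only where both wild-type libraries reached the confidence limit and makes no such demand on the DDX5-deficient ones, so sites edited in DDX5-deficient cells alone cannot appear in it. Coverage in wild-type library 2 ran over the 15 sites between 29 reads at the first Atl3 site and 222 at Rhoa.

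**Figure D4:**
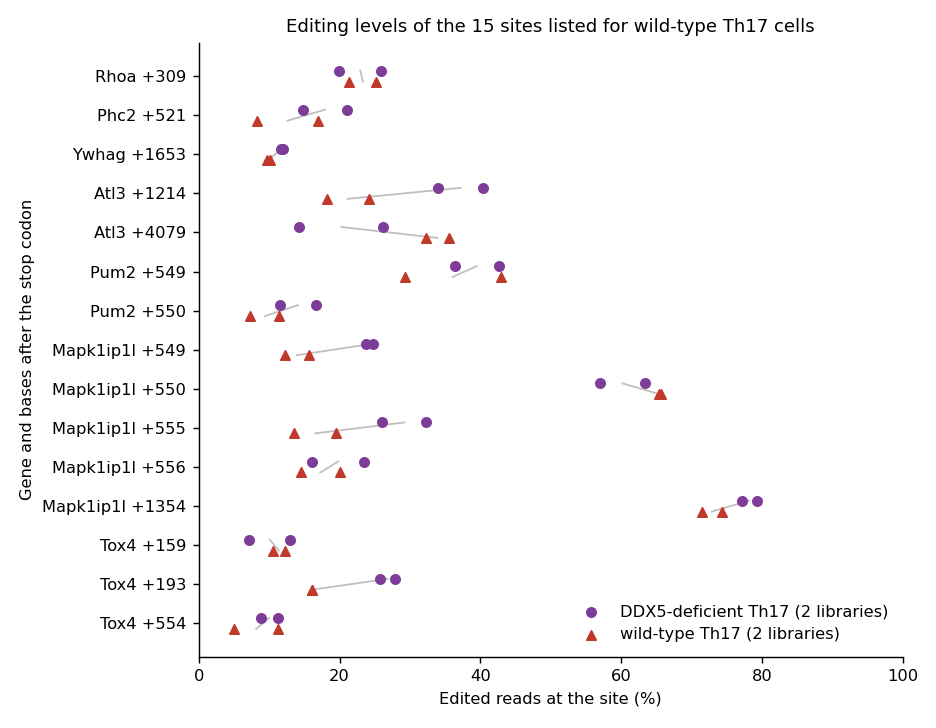
Percentage of edited reads at the 15 sites listed for wild-type Th17 cells. Purple circles are the 2 DDX5-deficient libraries, red triangles the 2 wild-type libraries, and grey lines join the group means: the DDX5-deficient libraries lie above at 7 sites, below at Atl3 base 4079 and Mapk1ip1l base 550, and overlap at 6.

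Expression of the 7 genes was read from the counts of the Th17 and naive libraries, which held 11768994 to 26624436 reads on genes. Th17 library 2 had the fewest reads but the most genes detected, 15316. The others had 14435 in Th17 library 1 and 13080 and 12499 in the naive libraries, and the reason was not tested. The cytokine and receptor markers Il17a, Il17f, Il22, Il23r and Ccr6 were each higher in Th17 cells, and 5 of 5 naive markers were lower. Cd3e, Cd3g and Cd4 were lower in Th17 cells but remained between 120 and 627 CPM, counts relative to the TMM-scaled library size, in each library. The summed CPM was 0.451 and 1.14 in the Th17 and 2.12 and 2.75 in the naive libraries over 4 B cell markers, 3.57 and 3.64 against 5.09 and 4.30 over 4 myeloid markers, and 14.8 and 13.8 against 21.1 and 28.1 over Cd8a and Cd8b1. The myeloid sum joins opposite changes. Cd14 was called higher, with 3.26 and 2.65 CPM in the Th17 and 0.0531 and 0 CPM in the naive libraries. Lyz2 and Itgam were called lower, and Csf1r was not called.

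The transcripts of the 7 genes did not move in 1 direction. In the edgeR fit, with p adjusted by Benjamini-Hochberg, 2 were higher, 3 lower and 2 not called. Of the 11989 genes tested 65.1% were called, 34.3% as higher and 30.7% as lower. In bulk RNA, fewer cells of a type and less RNA per cell cannot be told apart. Ywhag had 324 and 298 CPM in the Th17 libraries, against 108 and 108 CPM in the naive libraries. It rose by a log2 of 1.53 (SE 0.16, edgeR adjusted p = 3.9e-05), the largest change of the 7.

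Atl3 had 203 and 180 CPM in the Th17 libraries, against 143 and 117 CPM in the naive libraries. The groups did not overlap, and it rose by a log2 of 0.55 (SE 0.17, edgeR adjusted p = 0.017). The call was lost without naive library 2 (edgeR adjusted p = 0.12), without Th17 library 1 (0.11) and with no filter on low counts (0.052). Mapk1ip1l had 182 and 151 CPM in Th17 and 134 and 123 CPM in naive cells. Its log2 change of 0.37 (SE 0.16, edgeR adjusted p = 0.070) was not called, although the libraries did not overlap, and it was called by DESeq2's Wald test (adjusted p = 0.011) and with DESeq2's size factors in edgeR (adjusted p = 0.048).

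Rhoa had 353 and 363 CPM in the Th17 libraries, against 451 and 606 CPM in the naive libraries. It fell by a log2 of 0.56 (SE 0.19, edgeR adjusted p = 0.028), but the 2 naive libraries lay further apart than the nearest Th17 and naive libraries. This call was lost without naive library 2, without either Th17 library and with genes kept by a mean normalized count of at least 10, at edgeR adjusted p between 0.052 and 0.086. Phc2 had 101 and 100 CPM in Th17 and 137 and 163 CPM in naive cells, and fell by a log2 of 0.58 (SE 0.16, edgeR adjusted p = 0.010). Pum2 had 228 and 224 CPM in Th17 and 393 and 325 CPM in naive cells, and fell by a log2 of 0.67 (SE 0.17, edgeR adjusted p = 0.0070).

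Tox4 had 173 and 152 CPM in the Th17 libraries and 148 and 158 CPM in the naive libraries, which overlapped. Its log2 difference was 0.09 (SE 0.15, edgeR adjusted p = 0.62). The genes with lower editing levels thus included transcripts that were more abundant, less abundant and not called as changed in Th17 cells. All 3 Rhoa sites lie within Gm37401, annotated antisense to Rhoa (chromosome 9, 108337089 to 108338273, minus strand). The last 2 listed Tox4 sites lie where the gene overlaps Mettl3 (chromosome 14, 52294841 to 52305128, minus strand), and the 3 sites of the downstream Mapk1ip1l cluster lie opposite the processed pseudogene Gm49190 (chromosome 14, 47320410 to 47321056, minus strand). Whether the counting used strand is not given in the sources used here, so reads of these pairs may not be told apart.

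**Figure D5:**
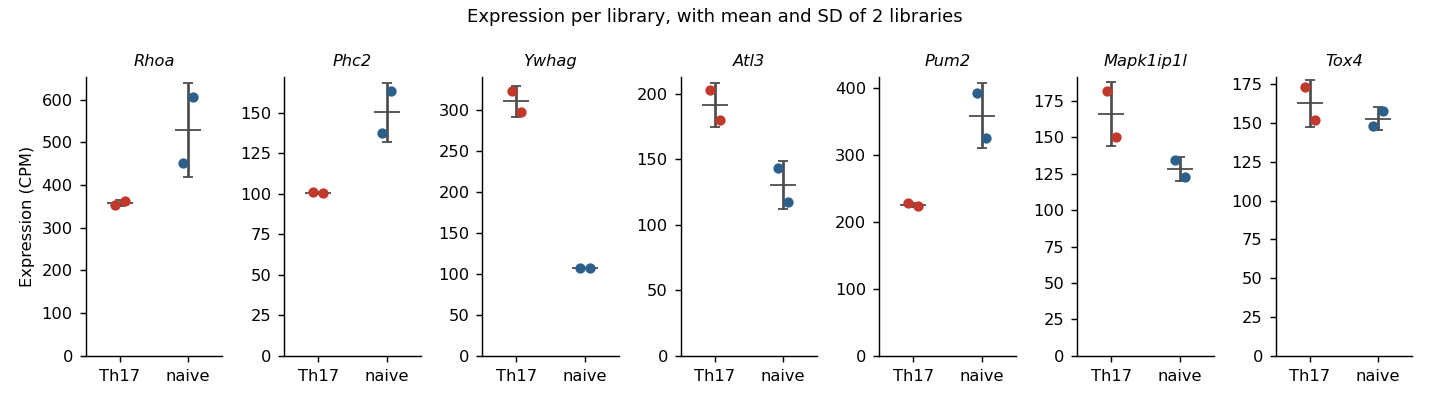
Expression of the 7 genes in CPM, on an axis of its own for each gene, with points for the 2 Th17 (red, left) and 2 naive (blue, right) libraries and bars for mean and SD. Ywhag has 311 CPM in Th17 against 108 CPM in naive cells, and Tox4 has 163 against 153 CPM with overlapping libraries.

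Of 14 tested genes for RNA editing enzymes and their partners, 5 were higher and 5 lower in Th17 cells, with a median log2 difference of -0.02 against 0.06 over all genes tested. Adarb1 rose to 240 and 190 CPM in the Th17 libraries, against 1.38 and 1.27 CPM in the naive libraries, a log2 change of 7.33 (SE 0.24, edgeR adjusted p = 1.1e-07). Adar fell to 141 and 127 CPM in the Th17 libraries, against 351 and 259 CPM in the naive libraries, by a log2 of 1.18 (SE 0.19, edgeR adjusted p = 5.8e-04). Ddx5, named because 2 of the libraries of the further cultures are labelled DDX5-deficient, had 1109 and 1256 CPM in the Th17 and 2383 and 2984 CPM in the naive libraries, a log2 change of -1.18 (SE 0.21, edgeR adjusted p = 0.0012). Adarb1, Adar and Ddx5 were called in the same direction under each alternative run. Adarb1 thus rose, and Adar and Ddx5 fell, between the same libraries that differ in editing level at the 12 sites. Of all genes tested, 65.1% were called between these libraries. Whether any of these genes had a part in the editing levels was not tested.

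Lists of other genes were set beside 6 of the 7, all but Mapk1ip1l. Of 22 genes of RhoA signalling, 1 was higher, 12 were lower and 9 were not called, with a median log2 difference of -0.48. The guanine nucleotide exchange factor gene Arhgef1 had 279 and 249 CPM in the Th17 and 3192 and 2904 CPM in the naive libraries, a log2 change of -3.53 (SE 0.21), and the kinase gene Rock2, which acts downstream of RhoA, rose by 0.95 (SE 0.18). Of the 9 not called, Rhoc at 4.65 (SE 1.18) and Rhob at 2.85 (SE 1.19) had larger rises, named here after their values were seen. Their Th17 libraries lay far apart, at 14.2 and 65.3 CPM for Rhoc and 33.0 and 180 CPM for Rhob. Of 19 genes of Polycomb repressive complex 1, 4 were higher and 10 lower, with a median of -0.68. The Polycomb genes at the ends were Pcgf2, for a RING-finger subunit, at 3.48 (SE 0.34) and Cbx7, for a reader of methylated histone H3, at -3.09 (SE 0.19).

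Among the other 6 genes for 14-3-3 proteins, Ywhae rose by a log2 of 1.37 (SE 0.20) and Ywhah by 0.63 (SE 0.17), 0 were lower and 4 were not called. Leaving out naive library 1 gave 1 higher and 1 lower call. Of 10 genes for atlastins and proteins that shape the endoplasmic reticulum, 6 were higher and 0 lower, with a median log2 difference of 0.73, between Ckap4 at 3.23 (SE 0.28) and Reep5 at 0.72 (SE 0.16) among the called genes. Of 13 tested genes for Pumilio partners and deadenylation, 2 were higher and 4 lower, and the ends were the CCR4-NOT nuclease genes Cnot7 at 1.04 (SE 0.16) and Cnot6l at -0.71 (SE 0.16). Of 7 tested genes for the protein phosphatase 1 complex of TOX4 and the TOX family, 1 was higher and 3 lower. The transcription factor gene Tox2 rose by a log2 of 3.56 (SE 0.59), with 3.78 and 4.70 CPM in the Th17 against 0.478 and 0.211 CPM in the naive libraries, and Tox changed by -2.82 (SE 0.18). Some small counts of these lists moved by over 1.5 times between settings, reaching 0 to 3 higher for RhoA signalling, 0 to 2 higher for the TOX4 list, 2 lower for the Pumilio list, 1 lower for the 14-3-3 and the atlastin lists, and 3 higher and 3 lower for the editing list. Without naive library 2 neither Rock2 (edgeR adjusted p = 0.063) nor Tox2 (0.065) was called, and without naive library 1 Ywhah was not (0.077). The 12 pathway genes named here as called had edgeR adjusted p between 1.7e-06 and 0.010. The lists were described by their counts beside the 34.3% higher and 30.7% lower of all genes, and no list was tested as a set.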

How the data were processed

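RNA of 8 libraries was read, 2 for each of 4 groups. The authors' gene counts of the Th17 and naive libraries, called original per the file headers, were made with STAR 2.6.1a and featureCounts on mm10, per the submitters' processing notes. Counting settings, strandedness, any filter on known variants and the version of SAILOR, the editing caller that the labels name with a confidence of 0.99, are not given in the sources used here. Per the file headers, the deposited editing tables give the edited fraction per site and library, on a scale of 0 to 1 and printed here as percent, a confidence score, and a coverage count. The coverage belongs to Th17 library 2 and wild-type library 2, where their product with the fraction was a whole number to within 0.01 at 100% of sites, against 6.52% to 7.92% in the others, whose depth is unknown. The authors' normalized signal, log2 fold change, Wald score and p-value columns, per the file headers, were not used for any result.

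For expression, edgeR 4.0.16 was run in R 4.3.3 (filterByExpr, TMM, robust quasi-likelihood fit on group) over 11989 genes, and for editing limma 3.58.1 (robust empirical Bayes, arcsine square root of the fraction) over the 328 sites with 4 levels, both with Benjamini-Hochberg adjustment and calls at an adjusted p under 0.05. Limma intervals come from a fit of the untransformed fraction. Site intervals are exact Clopper-Pearson at 95% and cover counting error only, since copies of 1 molecule made by PCR were counted apart where no molecular identifier was used. Values are means with SD over n = 2 libraries, and p-values measure only the spread between these libraries. Inverted repeats were sought with blastn 2.17.0 (word size 7, match 1, mismatch -1, gap opening 2 and extension 1), a setting chosen after seeing the data. Tested on simulated counts, 51 of 94 genes with a log2 change of 1 and 83 of 98 with a change of 2 were called, with 4 false calls among 11534 unchanged genes. The changed genes were a far smaller share there than the 65.1% called in the data. The Benjamini-Hochberg cut-off depends on that share, so these counts do not give the recovery in the data. On simulated levels, limma called 4 of 17 sites shifted by 0.3 on the arcsine scale, 15 of 16 shifted by 0.8 and 1 of 295 unshifted sites. Both shifts were larger than any difference of the 15 sites on that scale, of which the largest was 0.178 at the first Atl3 site. The recovery of differences as small as those seen was not simulated.

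Named were the 7 genes, the called genes with the highest and lowest change of each list, and the 3 other genes with at least 2 sites whose editing difference was nearest to the median of the 7. Of the Th17 markers, 1 is not reported here. The genes and lists were chosen with earlier results of these data known. Alternatives covered the scaling, DESeq2 1.42.0, filters on counts and coverage, the transformation, the sites averaged, a replicate block and each library left out.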

Additional observations from a re-analysis of the deposited data

How the results depend on the processing

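With 1 library of a group left out, the lone library is assumed to vary like the other group. Then 5003 to 8519 genes were called, against 7800, and 3 to 5 of the 7, against 5. The log2 expression difference of Tox4 then ran from -0.041 (without Th17 library 1) to 0.19. Counting all listed sites, the median editing difference of the 7 genes was -15.5 percentage points and that of Mapk1ip1l 1.44, because sites listed for naive cells alone enter the naive means. With 1 library left out that median ran from -44.7 to -29.7.

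In DDX5-deficient against wild-type cells, 1 site of other genes, lower, was called among the 161 with a coverage of at least 20 reads. There limma gave an unadjusted p under 0.05 at 5 of the 15 sites and at 30 of the 161. In the main fit this held for 1 of the 15, on the untransformed fraction for 2 and on its logit for 0. None of the 15 sites was called under any alternative run. With 1 library left out, 5 small differences changed sign: they ran from -3.38 to 10.2 percentage points at Pum2 base 549, -1.13 to 6.21 at Mapk1ip1l base 556, -1.26 to 4.97 at Tox4 base 554, -3.39 to 2.64 at Rhoa and -4.20 to 1.62 at Tox4 base 159.

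The replicate numbers were not taken to pair the samples. Only the libraries numbered 2 of the Th17 and naive cells share an identifier, of unstated meaning, and deviations of same-numbered libraries correlated at -0.0345 over 11989 genes and 0.0751 over 328 sites. With the numbers as a replicate block, 7738 genes and 5 of the 7 were called, and 0 editing sites. Where coverage is known, it ran from 25 reads (Pum2) to 424 (Rhoa) in Th17 library 2, and the other libraries' depth at these sites is unknown.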
